A study of Mus musculus with 24 samples.

Results

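The RGK family of small GTPases was followed across 24 arrays of RNA from MLO-Y4 cells, an established mouse cell line with osteocyte features. The family has 4 members in the mouse, Gem, Rrad, Rem1 and Rem2, and they were taken by gene symbol. Of these 4, 3 had a probe set (an array row summarising the probes of 1 transcript) with a single symbol, namely Gem (10503334), Rrad (10581151) and Rem2 (10415074). All 3 passed the filter on dim probe sets and were among the 14489 genes tested. Rem1 had no row under its symbol and was not analysed here. The family was chosen by a measured value: Gem had the largest rise of all genes on most arrays of the ug position. The levels of Gem at ug are therefore given as a description, with no test. Rrad and Rem2 were included as relatives, whatever their values.

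RGK proteins resemble Ras but hydrolyse GTP poorly and are controlled largely by how much of them a cell makes. All members bind the beta subunits of voltage-gated calcium channels and reduce the calcium current. Some members also act on the actin cytoskeleton. Gem was first described in stimulated lymphocytes and is induced early by many stimuli. Rrad is best known from heart and skeletal muscle, Rem1 from the heart, and Rem2 from neurons and endocrine cells.

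The arrays formed 8 groups of 3, which crossed an antibody with an environment. Every culture first received an antibody at a dilution of 1:50 for 30 min (37 °C, 5% CO2, in an incubator). This was either a rabbit IgG of no relevant target (the IgG arm) or Cx43(E2) at 28 µg/ml, an antibody that blocks hemichannels formed by connexin 43 (the E2 arm). Cultures then went to the 1g, 2g or ug (written μg in the protocol) position of the HMGE platform (high magneto-gravitational environment), or stayed in an incubator (C). No culture without antibody is in the series, and no label gives the time on the platform. Titles number the arrays of a group 1 to 3, and a set here means the 4 arrays of 1 arm with the same number, such as IgG 2. No label says that the numbers mark separate cultures, so p-values measure only the spread between these arrays. Values are log2 intensities, with array medians between 6.48 and 6.65. Of 12 osteocyte and osteoblast markers, 10 were on the array under their symbols and 7 lay above background on every array, among them Pdpn and Gja1, while Dmp1, Phex and Mepe were at background on all 24. The number of arrays limits the precision.

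In set IgG 2 the arrays labelled 2g and ug stood apart from the same positions of the other sets. There Gem was high on the 2g array and low on the ug array, the opposite of the other 5 sets. Results that rest on these discrepant arrays are given with and without both. This omission was added after the data were seen, and Gem itself stood out on these arrays. Smaller standard errors of Gem without them follow from that choice and do not measure precision. Whether this reflects the samples or their labels was not tested.

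Gem was high on 6 of 24 arrays, and 5 of those were at ug. In the IgG arm at ug its log2 intensity was 8.30, 5.97 and 10.50 in sets 1, 2 and 3. In the E2 arm at ug it was 9.01, 10.48 and 9.25. The 3 E2 arrays at ug lay above all 9 other arrays of their arm, whereas the IgG arrays at ug ran from the lowest level of the arm to the highest. The share of all genes above all 9 in the E2 arm was not counted. Since the rise at ug chose Gem, nothing is read from this separation.

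In the incubator Gem lay at 6.41, 6.06 and 6.76 in the IgG arm and at 6.76, 6.74 and 6.53 in the E2 arm. At 1g it lay at 6.39, 5.999 and 6.80 in the IgG arm and at 6.97, 7.02 and 5.94 in the E2 arm. At 2g the E2 arrays held 7.02, 6.84 and 6.43. These groups overlapped throughout. The IgG arrays at 2g held 6.05, 8.69 and 6.72, and the middle value, that of set IgG 2, was the only 1 of the 18 arrays outside ug above 7.02.

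**Figure D1:**
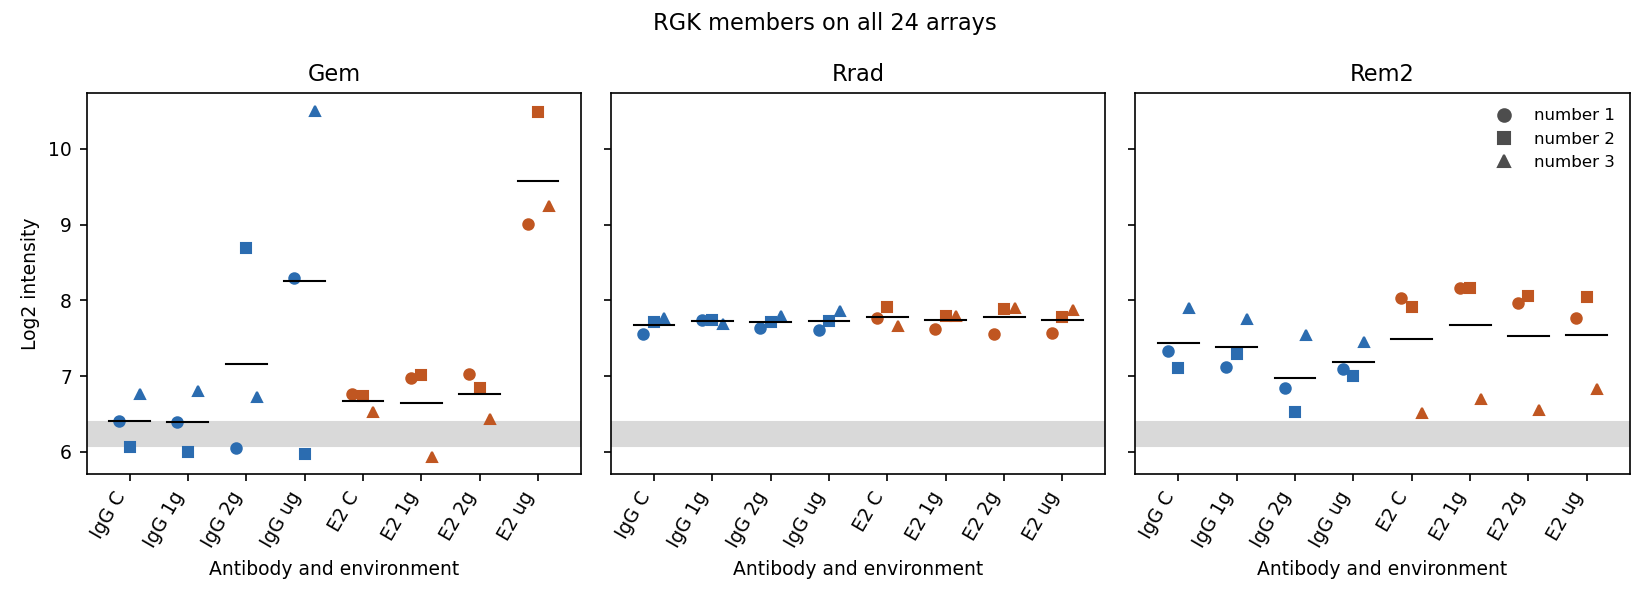
Log2 intensity of Gem, Rrad and Rem2 on 24 arrays (vertical axis) by antibody and environment (horizontal axis), with blue for IgG, orange for E2, marker shape for the number in the title, black lines for group means (n = 3) and a grey band for the background level of the arrays (6.07 to 6.40). Gem spans 5.94 to 10.50 and is high at ug in 5 sets and at 2g in set IgG 2, while Rrad stays between 7.56 and 7.92 and Rem2 between 6.51 and 8.17.

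Group means of Gem followed the order E2 ug (9.58 ± 0.79, SD, n = 3), IgG ug (8.26 ± 2.27), IgG 2g (7.15 ± 1.38), E2 2g (6.76 ± 0.30), E2 C (6.67 ± 0.13), E2 1g (6.64 ± 0.61), IgG C (6.41 ± 0.35) and IgG 1g (6.40 ± 0.40). The arrays of neighbouring groups overlapped in all 7 steps of this order. In the IgG arm the highest array at 2g was that of IgG 2, and at ug the arrays of IgG 2 and IgG 3 lay far to either side of the mean. Arrays of whole cultures cannot tell apart more cells that hold Gem RNA from more Gem RNA per cell.

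Within sets, ug minus incubator for Gem was 1.89, -0.09 and 3.74 on the log2 scale in IgG 1, 2 and 3, and 2.25, 3.75 and 2.73 in E2 1, 2 and 3. As folds these are 3.70, 0.941, 13.4, 4.75, 13.4 and 6.61. In 5 of 6 sets Gem had the largest rise at ug of all 14489 genes. The gene next to it was higher by 1.42 in IgG 1 (Snora75), 1.74 in IgG 3 (Fosb), 1.62 in E2 1 (Snora31), 2.07 in E2 2 (Atf3) and 1.79 in E2 3 (Gm8624). In IgG 2 Gem ranked 10290th at ug but had the largest rise at 2g, with 2.63, a fold of 6.21, ahead of Olfr767 with 1.18.

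Averaged over the arm, ug minus C for Gem was 2.91 ± 0.75 (standard error of the fit, 3 arrays per group) with E2 and 1.85 ± 0.75 with IgG. Without both discrepant arrays of IgG 2, an omission made after the data were seen, the IgG value was 2.99 ± 0.50. The higher value and smaller error follow from leaving out arrays on which Gem stood out. Without the ug array of set IgG 3 it was 0.72. The E2 arrays at ug did not overlap those of C, 1g or 2g, which also held for 2.82%, 3.22% and 2.83% of all genes in the upward direction. Since the rise at ug chose Gem, these shares are printed beside it and nothing is read from them. The E2 arm exceeded the IgG arm at ug by 1.32 ± 0.75, and by 0.18 ± 0.50 without both discrepant arrays. The difference in ug minus C between the arms, E2 minus IgG, was 1.06 ± 1.06, and -0.08 ± 0.68 without them.

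The other environments did not choose Gem and were tested. Here no gene was called (limma, adjusted p below 0.05; 0% of 14489 genes) in 1g minus C, 2g minus C or 2g minus 1g in either arm, and at an unadjusted p under 0.05 the number was 259 to 1272. Gem at 1g minus C was -0.01 ± 0.75 in the IgG arm (limma, adjusted p = 0.999, 95% interval -1.58 to 1.55). In the E2 arm it was -0.03 ± 0.75 (limma, adjusted p = 1, -1.60 to 1.53), lower in 1 of 3 sets. At 2g minus C it was 0.09 ± 0.75 in the E2 arm (limma, adjusted p = 1, -1.47 to 1.65). In the IgG arm it was 0.74 ± 0.75 (limma, adjusted p = 0.787, -0.82 to 2.31), higher in 1 of 3 sets, and without both discrepant arrays of IgG 2 it was -0.03. These intervals are wide because 1 spread is shared over 8 groups and the ug and 2g arrays set it for Gem. Without both discrepant arrays of IgG 2 the standard error at 1g was 0.45.

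Antibody was compared within each environment. E2 minus IgG for Gem was 0.26 ± 0.75 in the incubator (limma, adjusted p = 0.83), 0.25 ± 0.75 at 1g (limma, adjusted p = 0.908) and -0.39 ± 0.75 at 2g (limma, adjusted p = 0.973). The number of genes called was 423 of 14489 in the incubator (2.92%) and 0 at 1g, 2g and ug (0% each; limma, with 1804, 626 and 1862 at an unadjusted p under 0.05). Without both discrepant arrays of IgG 2 the incubator count was 0, and Gem at 2g was 0.38 higher with E2. Of the 3 RGK genes, 0 were called in the incubator. The low levels of Gem moved with the set: the incubator and 1g arrays of set IgG 2, at 6.06 and 5.999, lay below every incubator and 1g array but the 1g array of E2 3.

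Whether a member was at background was judged against 1035 rows of olfactory receptor genes, which osteocytic cells are not expected to use. A member was called at background on an array if it lay below the 95th percentile of those rows, which was 6.07 to 6.40 on the log2 scale. Gem was at background on 5 of 24 arrays: the 2g array of IgG 1, the incubator, 1g and ug arrays of IgG 2 and the 1g array of E2 3. Rrad was at background on 0 and Rem2 on 0. Against the 40th percentile of all rows of the array, 1 array of Gem lay below the limit and none of Rrad or Rem2. Folds of Gem therefore start from levels at or little above background, where an array can understate them.

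Markers of other cell types also passed this limit, so passing it does not place a gene among those that the cells use. Rrad stood between the 61.8th and 65.6th percentile of all rows and Rem2 between the 47.6th and 68.4th, in the middle of the array. Of 9 striated muscle markers, 5 were also above the limit on all 24 arrays, including Ckm and Myod1, and 1 of 9, Ryr2, was below it on all. Of 5 neuron markers only Tubb3 was above it on all arrays, and Rbfox3 was below it on all. The mean level of the 8 muscle markers tested ran from 6.66 to 6.73 in the IgG incubator arrays and from 6.70 to 6.83 in the IgG ug arrays. In the E2 arm it ran from 6.74 to 6.94 in the incubator and from 6.74 to 6.85 at ug. That of the 4 neuron markers tested ran from 6.23 to 6.32 and from 6.28 to 6.38 in the IgG arm, and from 6.32 to 6.35 and from 6.30 to 6.39 in the E2 arm. For both lists the ranges of the incubator and ug arrays overlapped in both arms. The mean of the 3 endothelial markers tested ran from 5.93 to 5.97 in the IgG incubator arrays and from 6.02 to 6.28 at ug. These did not overlap, and the share of all genes that did so was not counted. In the E2 arm it ran from 6.08 to 6.17 and from 6.14 to 6.28. Pecam1 was 0.36 ± 0.12 higher at ug with IgG and 0.37 ± 0.12 with E2. Cdh5 was 0.01 ± 0.09 and -0.15 ± 0.09, and Tek 0.17 ± 0.07 and 0.01 ± 0.07, with none called. Pecam1 was at background on 22 of 24 arrays, and Tek and the untested Kdr on all. Of 4 macrophage markers 2 were tested, at 7.37 to 8.06 and 7.54 to 8.03 in the IgG arm and 7.50 to 7.96 and 7.46 to 8.16 in the E2 arm, with Ptprc and Adgre1 at background on all. The part of other cell types in the Gem result was not tested.

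Rrad encodes Rad, the relative of Gem known from muscle. Its whole range over 24 arrays was 0.359 on the log2 scale, against 4.57 for Gem. In the IgG arm at ug it lay at 7.60, 7.73 and 7.85, and in the incubator at 7.56, 7.71 and 7.77. With E2 it lay at 7.57, 7.78 and 7.88 at ug and at 7.76, 7.92 and 7.66 in the incubator. The groups overlapped in both arms, and the ug array was the highest of its set in 1 of 6 sets.

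No change was called for Rrad. Ug minus C was 0.05 ± 0.10 in the IgG arm (limma, adjusted p = 0.986, 95% interval -0.16 to 0.26), higher in 3 of 3 sets, and -0.04 ± 0.10 in the E2 arm (limma, adjusted p = 1, -0.25 to 0.17), higher in 1 of 3. No gene was called in either comparison (0% of 14489), nor in ug minus 1g and ug minus 2g of either arm (0% each; limma, with 103 to 748 genes at an unadjusted p under 0.05 over these 6 comparisons). The interval in the E2 arm ends at a rise of 0.17, where Gem was 2.25 to 3.75 higher in the same 3 sets. On the arrays of IgG 2 where Gem differed by 2.72 between 2g and ug, Rrad held 7.71 and 7.73. Over its 19 comparisons without a block, the change of Rrad lay between -0.09 and 0.10 and the smallest adjusted p was 0.514.

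Rem2, the relative known from neurons, differed between sets more than between environments. It lay at 6.84 to 7.32 in IgG 1, 6.53 to 7.29 in IgG 2, 7.45 to 7.90 in IgG 3, 7.76 to 8.16 in E2 1, 7.92 to 8.17 in E2 2 and 6.51 to 6.83 in E2 3. Differences between sets held 90.1% of its variance over the 24 arrays, against 59.3% for Rrad, 10.03% for Gem and a median of 51.5% for all genes. Differences between environments within sets held 3.72% for Rem2, 0.441% for Rrad and 54.1% for Gem, against a median of 8.24%.

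The first principal component of all other genes (44.7% of the variance) put sets IgG 1, IgG 2 and E2 3 on one side and IgG 3, E2 1 and E2 2 on the other, with all 4 arrays of each set together. Rem2 followed that division without overlap: its highest value among the former 12 arrays was 7.32 and its lowest among the latter 12 was 7.45. Rrad did not follow it (7.56 to 7.90 and 7.56 to 7.92). Gem did so only partly, as its lowest values were 5.94 and 6.72 on the respective sides. How many other genes split along this component without overlap was not counted, so nothing particular to Rem2 is read from the split.

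Rem2 at ug minus C was -0.26 ± 0.46 in the IgG arm (limma, adjusted p = 0.984), lower in 3 of 3 sets, and 0.06 ± 0.46 in the E2 arm (limma, adjusted p = 1), higher in 2 of 3. With the sets as a block the standard error of the IgG value at ug was 0.11. Its limma p was then 0.0282 unadjusted and 0.428 adjusted, which misses the threshold. At 2g minus C in the IgG arm it was -0.47 ± 0.46 (limma, adjusted p = 0.775), with -0.48, -0.57 and -0.36 in sets 1, 2 and 3. With the sets as a block the standard error fell to 0.11 and the adjusted p to 0.0812, which still misses the threshold; over all alternatives of this comparison it ran from 0.0812 to 1. Without both discrepant arrays of IgG 2 the change was -0.25. Between arms, Rem2 was 0.05 to 0.56 higher with E2 over the 4 environments (limma, smallest adjusted p = 0.774), and each arm held sets of both levels. No difference between the arms in the change from incubator to platform was called for Gem (1g and 2g), Rrad or Rem2. Without the block the smallest adjusted p of a member was 0.969 (limma), for Rem2 at 2g, where the difference was 0.51 ± 0.65. In that fit 0% of genes were called at 1g, 2g and ug, and 681, 866 and 523 had an unadjusted p under 0.05. With the sets as a block the standard error of this Rem2 difference fell to 0.15. Its limma p was then 0.00343 unadjusted and 0.334 adjusted, which misses the threshold. Without the 2g array of IgG 2 the difference was 0.29 in the fit without the block.

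**Figure D2:**
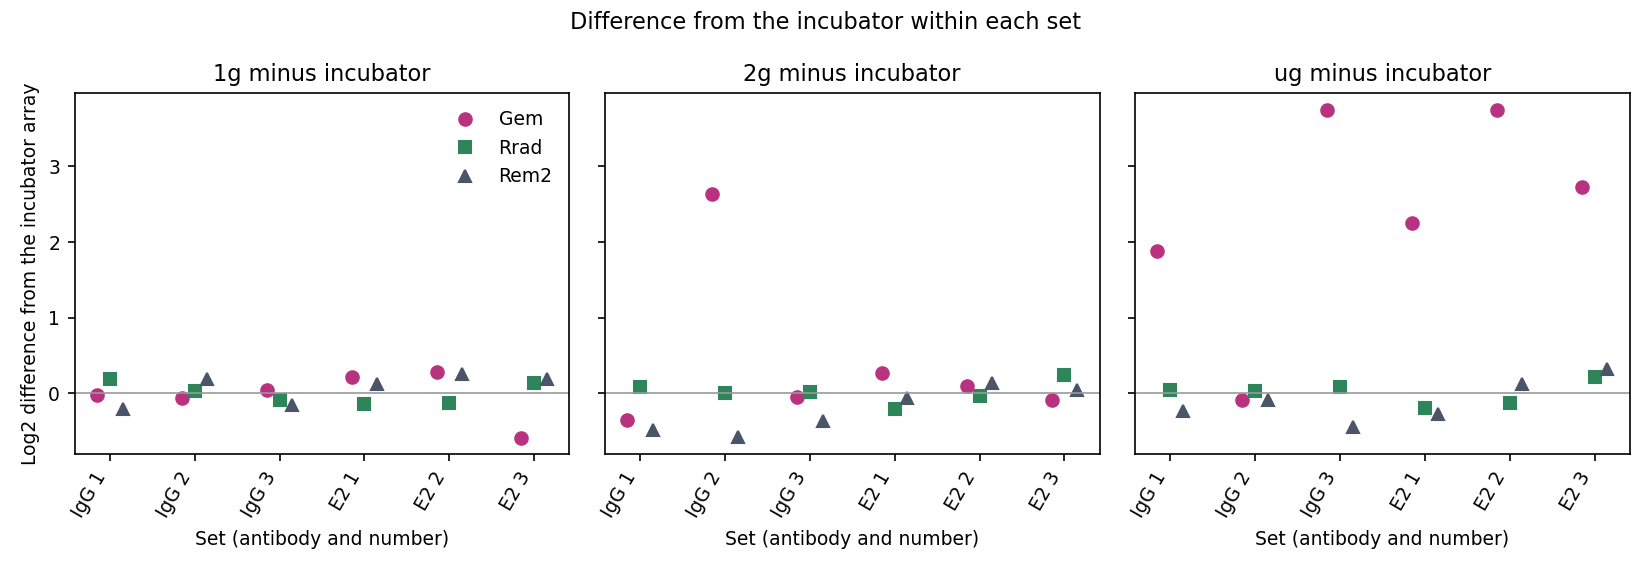
Log2 difference of each platform array from the incubator array of its set (vertical axis) for the 6 sets (horizontal axis), with 1 panel per position and 1 point per gene and set. Gem is higher by 1.89 to 3.75 at ug in 5 sets and by 2.63 at 2g in set IgG 2, while Rrad and Rem2 stay between -0.57 and 0.32.

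Other genes followed Gem closely. Likeness was Pearson's r over the 24 arrays after the mean of each set had been subtracted, so the points share sets and 6 high arrays carry much of the correlation. It is given as a description. The 5 genes most like Gem were Ppp1r15a (10563338, r = 0.968), Chka (10460221, 0.962), Fosb (10560481, 0.957), Ppp1r10 (10444957, 0.953) and Nup210l (10493662, 0.944). On the values as they stand the first 5 were Atf3 (10361091, 0.939), Ppp1r15a, Chka, A3galt2 (10508368, 0.926) and Fosb. A3galt2 (mean level 6.01) was above background only on the 6 high arrays of Gem. Its likeness to Gem and its passing of the filter on dim probe sets rest on those arrays. Of all other genes, 72 of 14488 (0.497%) had an r above 0.8 with the set means removed, and the median was -0.04. The relatives were far from this group: r with Gem was -0.01 for Rrad (6631st of 14488) and -0.35 for Rem2 (11920th).

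These 7 genes have different roles. Ppp1r15a encodes GADD34, which guides a phosphatase to the translation factor eIF2 alpha, and Ppp1r10 encodes a nuclear subunit of the same phosphatase. Chka encodes choline kinase alpha, and Fosb and Atf3 encode transcription factors that cells induce early after many stimuli. Over the incubator and 1g arrays alone (n = 12), where Gem was low, r was 0.708 for Fosb and 0.553 for Chka. It was -0.05 for Ppp1r15a and 0.04 for Atf3 there, and -0.704 for Rrad. By ranks over the 24 arrays (Spearman's correlation, set means removed) Fosb stood at 0.878, Atf3 at 0.855 and Ppp1r15a at 0.798.

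Their differences were smaller than those of Gem. Ppp1r15a at ug minus C was 0.55, -0.12 and 1.17 in IgG 1, 2 and 3 and 0.44, 1.30 and 1.39 in E2 1, 2 and 3, and at 2g it was 1.00 higher in IgG 2. Fosb was 0.27, 0.11 and 1.74 and then 0.88, 2.06 and 1.24 higher at ug, and 1.03 higher at 2g in IgG 2. Atf3 was 0.46, 0.05 and 1.61 and then 0.91, 2.07 and 1.18 higher at ug, and 0.79 higher at 2g in IgG 2. In all 7 genes the 2g array of IgG 2 lay above its ug array, a pattern that their choice by likeness to Gem on the same arrays largely fixed.

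**Figure D3:**
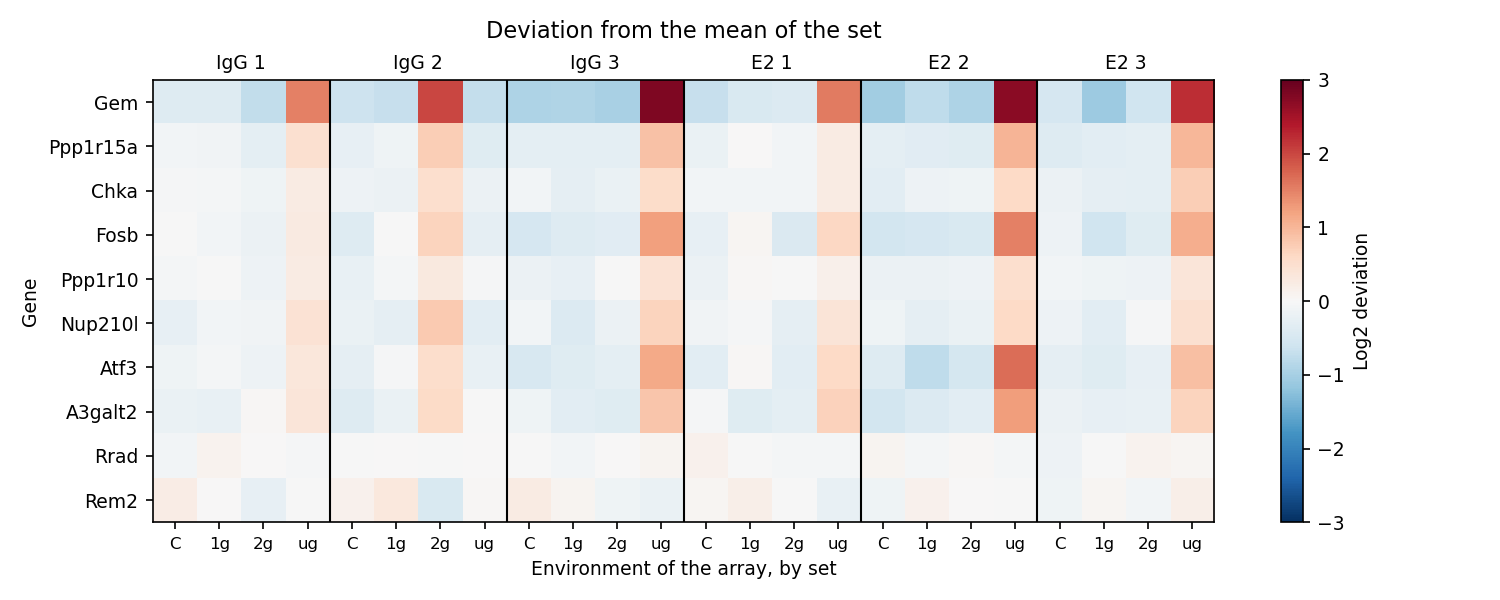
Deviation of each array from the mean of its set, in log2 units (colour, red above and blue below), over 24 arrays ordered by set and environment (columns). Rows are Gem, the 7 genes among the first 5 by either measure of likeness to it, and the relatives Rrad and Rem2. The ug column is the reddest in 5 sets and the 2g column in IgG 2 for Gem (up to 3.75 above the incubator) and the 7 genes, and both relatives stay pale.

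The promoters of the genes most like Gem were read to show what lies before their starts, as windows of 250 bases upstream from RefSeq (GRCm38.p6), a build that the arrays need not share. Windows were matched for Rem1 and Rem2 of the 4 members and for 6 of the 7 genes among the first 5 by either measure of likeness. None was matched for Gem, Rrad and Nup210l. The motifs searched on both strands were the cyclic AMP response element TGACGTCA (CRE), its 5-base part TGACG, which every CRE also contains, the AP-1 site TGANTCA, the CArG box and the TATA motif TATAAA. Shown are 3 of the genes most like Gem (Ppp1r15a, Fosb and Atf3, all on the minus strand at chr7:45526269-45526518, chr7:19310046-19310295 and chr1:191183334-191183583) and the relative Rem2 (plus strand, chr14:54475850-54476099), with matches in capitals:
Ppp1r15a: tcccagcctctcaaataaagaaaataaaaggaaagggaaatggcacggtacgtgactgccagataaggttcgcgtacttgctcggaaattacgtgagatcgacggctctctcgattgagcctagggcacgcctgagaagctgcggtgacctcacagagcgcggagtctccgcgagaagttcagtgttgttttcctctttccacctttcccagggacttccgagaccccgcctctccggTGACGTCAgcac
Fosb: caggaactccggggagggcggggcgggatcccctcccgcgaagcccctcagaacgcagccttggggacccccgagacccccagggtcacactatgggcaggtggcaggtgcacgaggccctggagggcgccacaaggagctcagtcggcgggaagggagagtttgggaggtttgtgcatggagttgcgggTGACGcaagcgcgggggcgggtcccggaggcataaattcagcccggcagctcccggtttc
Atf3: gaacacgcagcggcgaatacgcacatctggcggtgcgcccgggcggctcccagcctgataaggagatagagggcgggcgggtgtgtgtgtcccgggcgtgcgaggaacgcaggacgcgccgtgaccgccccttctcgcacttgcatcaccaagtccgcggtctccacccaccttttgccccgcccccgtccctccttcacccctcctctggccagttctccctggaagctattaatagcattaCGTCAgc
Rem2: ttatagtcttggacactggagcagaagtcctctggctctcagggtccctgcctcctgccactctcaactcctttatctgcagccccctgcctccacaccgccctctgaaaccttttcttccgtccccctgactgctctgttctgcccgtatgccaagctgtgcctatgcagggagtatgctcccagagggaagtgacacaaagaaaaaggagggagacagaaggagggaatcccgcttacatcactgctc
The window of Ppp1r15a held 1 CRE, at 12 to 5 bases before the start, a motif in 1.55% of 32851 such windows. Those of Fosb and Atf3 held 1 match each to TGACG, at 60 to 56 and at 7 to 3 bases before the start (the latter on the other strand, so the letters read CGTCA), as 17.8% of windows do. The windows of Rem2 and Rem1 held none of the 5 motifs, nor did those of Chka and A3galt2. Ppp1r10 had 2 windows, with TATAAA once, at 242 to 237 bases before the start, and no other motif. TGACG was thus in 3 of the 6 genes matched, and the 3 shown were chosen because they hold it. AP-1 sites were in 6.75% of windows, CArG boxes in 1.47% and TATAAA in 12.4%. A match describes these letters and not a site in use.

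Whether set IgG 2 stood apart beyond Gem was read from all genes except the 3 members. The profile of each set's 2g and ug array, against the mean of its incubator and 1g arrays, was compared with the mean ug profile of the other 5 sets. For the ug arrays, r across 14486 genes was 0.133, 0.0609 and 0.478 in IgG 1, 2 and 3 and 0.110, 0.503 and 0.155 in E2 1, 2 and 3. For the 2g arrays it was 0.124, 0.285 and 0.0812 in the IgG sets and -0.219, 0.0886 and 0.0764 in the E2 sets. The 2g array exceeded the ug array in IgG 2 only, and in IgG 1 both arrays were nearly level. With IgG 2 left out of the reference, IgG 1 had -0.0526 at 2g and 0.106 at ug. Genes are not independent replicates, and these values are a description.

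**Figure D4:**
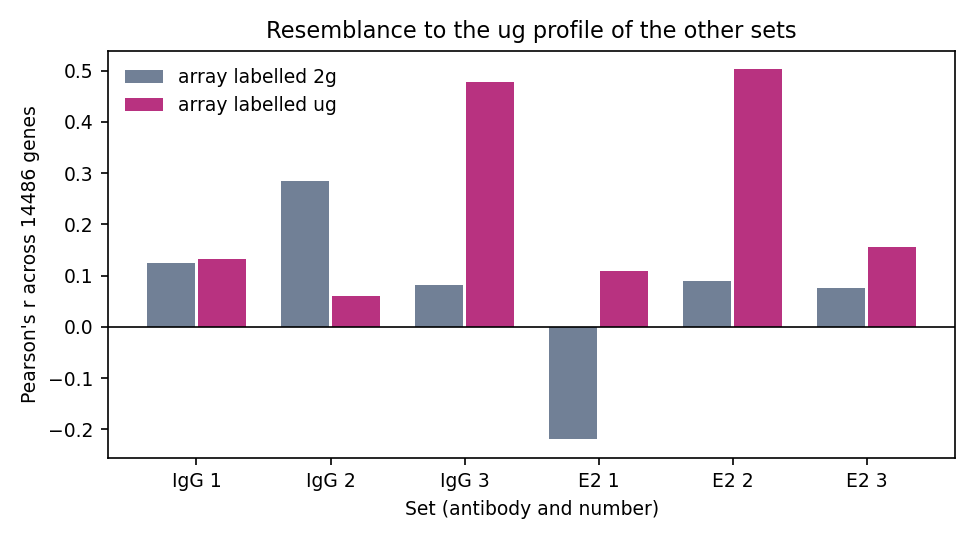
Pearson's r (vertical axis) between the profile of the 2g (grey) or ug array (pink) of each set and the mean ug profile of the other 5 sets, across 14486 genes, by set (horizontal axis). The ug bar is the taller in 5 sets (0.110 to 0.503), and the 2g bar in IgG 2 (0.285 against 0.0609).

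The proteins that RGK GTPases bind, and other genes around them, were taken from 4 lists. Of 18 subunits of voltage-gated calcium channels, the main targets of the family, 13 were tested. In the IgG arm at ug 9 of 13 were higher than in the incubator and 4 lower, none called (0% of all genes), with a median of 0.08 against -0.003 for all genes. Those with the smallest p were Cacna1h (0.22 ± 0.09), Cacna1i (0.17 ± 0.08) and Cacna2d4 (0.16 ± 0.08), each with limma adjusted p = 0.949. With E2, 4 were higher and 9 lower, none called (0%), with a median of -0.05 against -0.03. There the smallest p belonged to the channel genes Cacna1a (-0.13 ± 0.07), Cacnb2 (-0.15 ± 0.10), a beta subunit, and Cacna2d1 (-0.23 ± 0.18), each with limma adjusted p = 1. By set, 10, 10 and 7 of the 13 were higher at ug in IgG 1, 2 and 3. In E2 1, 2 and 3 it was 11, 5 and 1 of 13, so the direction in the E2 arm differed between sets. Mean levels of the 13 ran from 5.99 (Cacna1s) to 7.83 (Cacna2d1), with Cacna1h at 6.53 and Cacnb2 at 6.46.

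Of 13 genes of calmodulin, CaM kinase II and the 14-3-3 proteins, partners of RGK proteins, 4 were higher and 9 lower in the IgG arm (median -0.04). In the E2 arm 5 were higher and 8 lower (median -0.01), and none was called in either arm. The smallest p belonged to Ywhaz (-0.08 ± 0.05), Calm2 (-0.09 ± 0.06) and Sfn (0.12 ± 0.09) in the IgG arm. In the E2 arm it belonged to Camk2g (-0.13 ± 0.10), Ywhah (-0.09 ± 0.07) and Ywhag (-0.07 ± 0.06).

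Of 28 other Ras-family and Rnd GTPases tested, 9 were higher and 19 lower at ug in the IgG arm (median -0.05) and 11 higher and 17 lower in the E2 arm (median -0.01), none called. Rap1b (-0.17 ± 0.07), Rala (-0.16 ± 0.07) and Nras (-0.17 ± 0.08) had the smallest p in the IgG arm. Rasl11b (0.25 ± 0.08), Rasd1 (0.38 ± 0.14), a steroid-inducible Ras relative, and Rap1b (-0.13 ± 0.07) had it in the E2 arm. For E2 against IgG in the incubator 1 of the 28, Rala, fell (-0.30 ± 0.07, limma, adjusted p = 0.0435, where 2.92% of all genes were called). With quantile normalization its adjusted p (limma) was 0.0794. Without the incubator array of IgG 1, IgG 2, E2 2 or E2 3 it was 0.119, 0.199, 0.0722 or 0.15. Rala was also not called with only the arrays compared or without both discrepant arrays of IgG 2, where no gene was called. Over all alternatives its adjusted p ran from 0.0329 to 0.199.

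Among the 4 lists, transcripts that calcium and cyclic AMP induce in many cells had the highest median at ug in both arms. All 15 of this list were higher at ug than in the incubator in the E2 arm (median 0.51 against -0.03 for all genes) and 11 of 15 in the IgG arm (median 0.15), none called. With E2, Atf3 was 1.39 ± 0.31, Fosb 1.39 ± 0.36 and Fos 1.21 ± 0.34, and in the IgG arm they were 0.70 ± 0.31, 0.71 ± 0.36 and 0.65 ± 0.34. By set the list's median at ug was 0.05, -0.01 and 0.45 in IgG 1, 2 and 3 and 0.43, 0.93 and 0.27 in E2 1, 2 and 3. At 2g in IgG 2 it was 0.42, with 13 of 15 higher. The list was written with results of these arrays known, so its direction is no independent evidence.

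**Figure D5:**
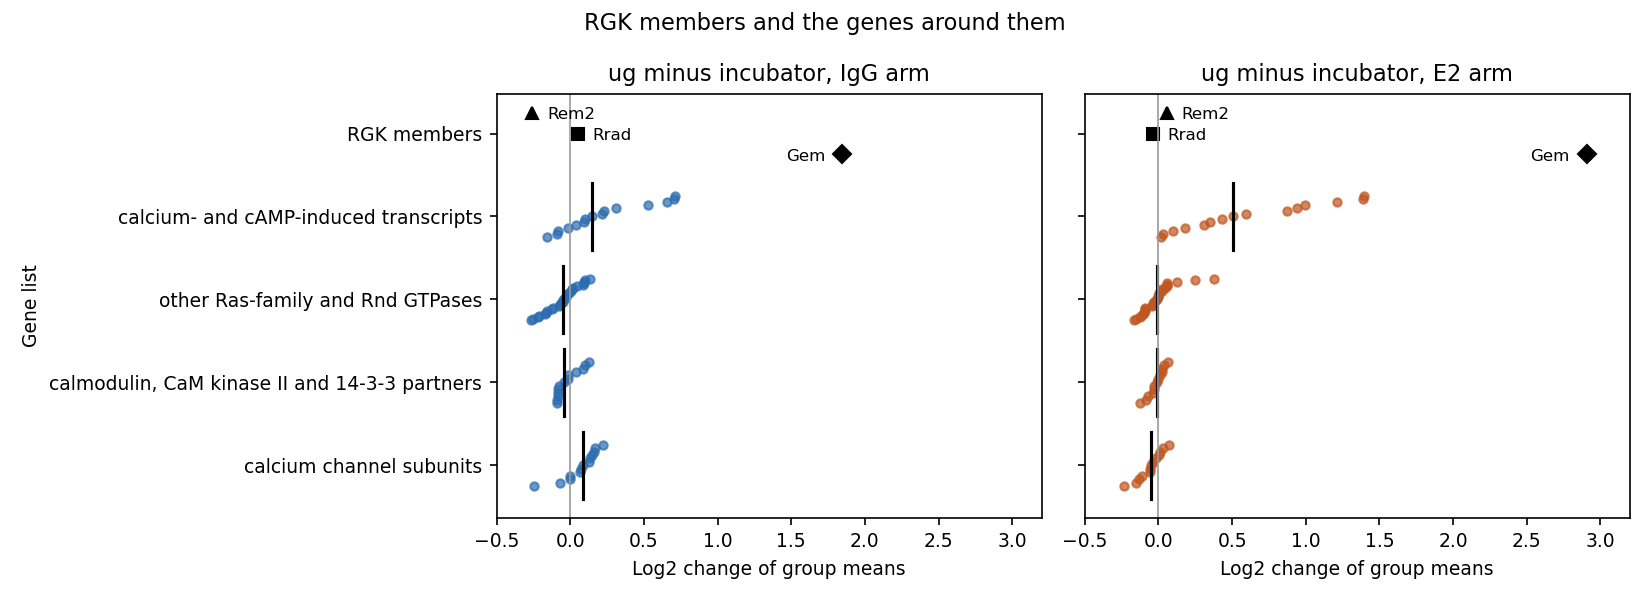
Log2 change of group means from incubator to ug (horizontal axis) for the RGK members (black symbols) and each tested gene of 4 lists (points, with the list's median as a black line), in the IgG arm (left) and the E2 arm (right). Gem (1.85 and 2.91) lies beyond every listed gene, the induced transcripts reach 0.71 and 1.39, and the binding partners and the relatives gather around 0.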

How the data were processed

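Gene expression was measured on 24 arrays of MLO-Y4 RNA, 3 per group. The values are the authors' deposited log2 intensities, a scale judged from the values. MAS5 is the tool in the submitters' processing notes; its role and the scaling between arrays are not given in the sources used here. Of 35556 rows, 21789 had 1 gene symbol in the platform annotation, 1621 had several and 12146 were not listed. Rows at or above the 40th percentile of the array on at least 3 arrays were kept, and a gene was represented by its brightest row. Groups came from titles. Limma 3.58.1 in R 4.3.3 fitted 8 group means over all arrays (16 residual and 4.08 prior degrees of freedom), with a variance trend, 19 comparisons, two-sided tests and Benjamini-Hochberg adjustment over 14489 genes at 0.05. The code was tested on simulated data.

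Replicate numbers were taken to pair arrays within an arm. Deviations from group means correlated above 0.1 in 36 of 36 pairs with the same number and arm (0.195 to 0.812). Between arms this held in 0 of 48 pairs with the same number, but in 64 of 96 with different numbers. Within an arm it held in 23 of 72 pairs with different numbers and environments, and in 4 of 24 pairs of the same group. Such correlation is therefore not confined to numbered sets. The block has 6 levels and cannot be fitted to E2 against IgG in 1 environment. Named were the 3 measured members, the 5 genes most like Gem by each measure, and of each list the 3 with the smallest p at ug in each arm and any called. Fos, Snora75, Snora31, Gm8624 and Olfr767 are named as neighbours in rank or list. Members and lists were chosen with earlier results of these data known. Alternatives were the block, quantile normalization, median centring, no filter, the mean of rows, no trend, a fit of the compared groups alone and omission of each array in turn. Results of 1 further list are not reported here. Omission of the discrepant 2g and ug arrays in set IgG 2 was added after seeing the data.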

Additional observations from a re-analysis of the deposited data

How the results depend on the processing

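Rrad kept its direction or stayed within its error in all 186 alternative values, and Rem2 in 185 of 186. The replicate block, fitted within arms, called none of the 3 members (limma, smallest adjusted p = 0.553 for Gem in comparisons without ug, 0.803 for Rrad and 0.0812 for Rem2). It raised the genes called in 1g minus C of the IgG arm from 0 to 7 and changed no other call of a member or list gene.

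Without both discrepant arrays of IgG 2, Gem in the IgG arm was 2.99 at ug minus C, 3.004 at ug minus 1g, 3.02 at ug minus 2g and -0.013 at 2g minus 1g. E2 minus IgG at ug was then 0.18, and the difference between arms in ug minus C was -0.08. Leaving out single arrays moved Gem from 0.72 to 2.99 in ug minus C of the IgG arm, from -0.020 to 2.25 in ug minus 2g, from -0.013 to 1.31 in 2g minus 1g, from 0.18 to 2.45 in E2 minus IgG at ug and from -0.08 to 2.18 in the difference between arms. It moved Rem2 at ug minus 2g of the E2 arm between -0.47, without the 2g array of E2 3, and 0.38.

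Counts of genes called moved more. For E2 minus IgG in the incubator they were 46 with quantile normalization, 1138 with centring on array medians, 60 with no filter, 0 with only the arrays compared or without both discrepant arrays of IgG 2, and 0 to 928 without single arrays. At 1g that last range reached 14. In the E2 arm ug minus C, ug minus 1g and ug minus 2g had 4, 4 and 3 genes without the arrays of IgG 2, and 0 to 1 without single arrays. The difference between arms at 1g had 0 to 1. Causes were not tested. Signal near background limits what can be said of Gem outside ug.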
